A study of Mus musculus with 16 samples.

Results

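The transcription factors *Erg*, *Fli1*, *Sox7*, *Sox17*, *Sox18*, *Foxf2*, *Foxq1*, *Klf2*, *Klf4* and *Nr2f2*, which direct or refine the endothelial programme, were followed in endothelial cells (ECs) and astrocytes of the mouse cerebral cortex. They are the 10 rows, of 56980 in the table of gene counts, whose Ensembl identifiers carry these symbols. The mice were 14 days old and carried *Hmgb1* alleles flanked by loxP sites (*Hmgb1* flx/flx). Mutants (*Hmgb1*ΔAstro) also carried Cre/ERT2, a Cre recombinase activated by tamoxifen, driven from the astroglial *Aldh1l1* promoter on a bacterial artificial chromosome. Wild types were littermates with the floxed alleles and no Cre. Pups of both genotypes received tamoxifen in the first days after birth, so that the groups share the floxed alleles and the drug, and both sexes were used. Myelin and CD45-positive cells were removed, ECs were taken with CD31 beads, and astrocytes were taken with ACSA-2 beads from what remained. Each of 8 animals, 4 per genotype, gave 1 EC library and 1 astrocyte library, so that 16 libraries formed 4 groups with n = 4. The question of the study that bears on these genes is whether losing astroglial HMGB1 changed the expression programme of the neighbouring endothelium.

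As background, ERG and FLI1 are ETS-family factors that maintain endothelial identity and junctions. SOX7, SOX17 and SOX18 form the SOXF group, which acts in arterial and lymphatic specification. FOXF2 and FOXQ1 are forkhead factors, and both are enriched in the brain vasculature, where FOXF2 is also made by pericytes. KLF2 and KLF4 are zinc-finger factors that laminar blood flow induces and that restrain inflammation and clotting, and they are also among the genes that respond early to cell stress. NR2F2 (COUP-TFII) specifies veins, and other cell types, glia and interneurons among them, use it too.

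Libraries held 16076010 to 23132312 counted reads. *Hmgb1*, the targeted gene, stood at 32.4 to 50.6 CPM (read counts scaled to library size) in mutant astrocytes and at 88.1 to 127.2 CPM in wild-type astrocytes, without overlap, and at 175.0 to 208.7 CPM in all EC libraries. The summed level of 12 endothelial markers was 15767 to 18018 CPM in EC libraries and 17.7 to 37.7 CPM in astrocyte libraries, and that of 12 astrocyte markers was 1445 to 2040 CPM in ECs and 39994 to 52348 CPM in astrocytes. Both fractions therefore carried the markers of their labels, and neither lacked those of the other entirely. Animals 2 and 13 (mutants) and 5 and 9 (wild types) had Y-linked transcripts, whereas animals 18 and 21 (mutants) and 19 and 22 (wild types) had *Xist*. This split parted the libraries in more than sex-linked genes, so values within each set of 4 animals are given beside the genotype comparisons. The animals with Y-linked transcripts also have the 4 lowest numbers. Sex therefore cannot be told apart from anything else that went with the numbering of the animals. The EC library of wild-type animal 9 stood apart from the other 7, with a summed level of immediate early and stress genes of 16559 CPM against 7113 to 9393 CPM, and results that rest on it are given with and without it.

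All 10 factors were higher in ECs than in astrocytes, in both genotypes, but over very different ranges. *Sox17*, *Sox18*, *Erg*, *Fli1* and *Foxq1* were close to absent from astrocyte libraries. *Sox7*, *Klf2*, *Klf4* and *Nr2f2* were present there with 863 to 3383 reads per genotype, and *Nr2f2* at 48.7% of its EC level in wild types and 48.0% in mutants. By the quasi-likelihood F-test of edgeR with Benjamini-Hochberg adjusted p under 0.05, 10 of 10 were called higher in wild-type ECs, where 6253 of 16336 genes tested (38.3%) were called in that direction. A further 6233 of these genes were called higher in wild-type astrocytes, so that 12486 were called in either direction. This is the background for the lists counted below. In mutants 10 of 10 were called higher in ECs, against a background of 6406 of 16508 genes (38.8%). The factors, like the endothelial lists below, were chosen as endothelial, so these counts describe them and are not a test. *Erg*, *Fli1*, *Sox17* and *Sox18* did not pass the filter on low counts in astrocytes alone. They entered these fits through their EC reads, so a call could go in that direction only. EC and astrocyte libraries did not overlap for any of the 10 genes, and the exact two-sided permutation test of 4 against 4 libraries gave p = 0.0286, the smallest it can give, for each. The samples are sorted cell fractions, in which fewer cells of a type and less RNA per cell cannot be told apart.

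**Figure D1:**
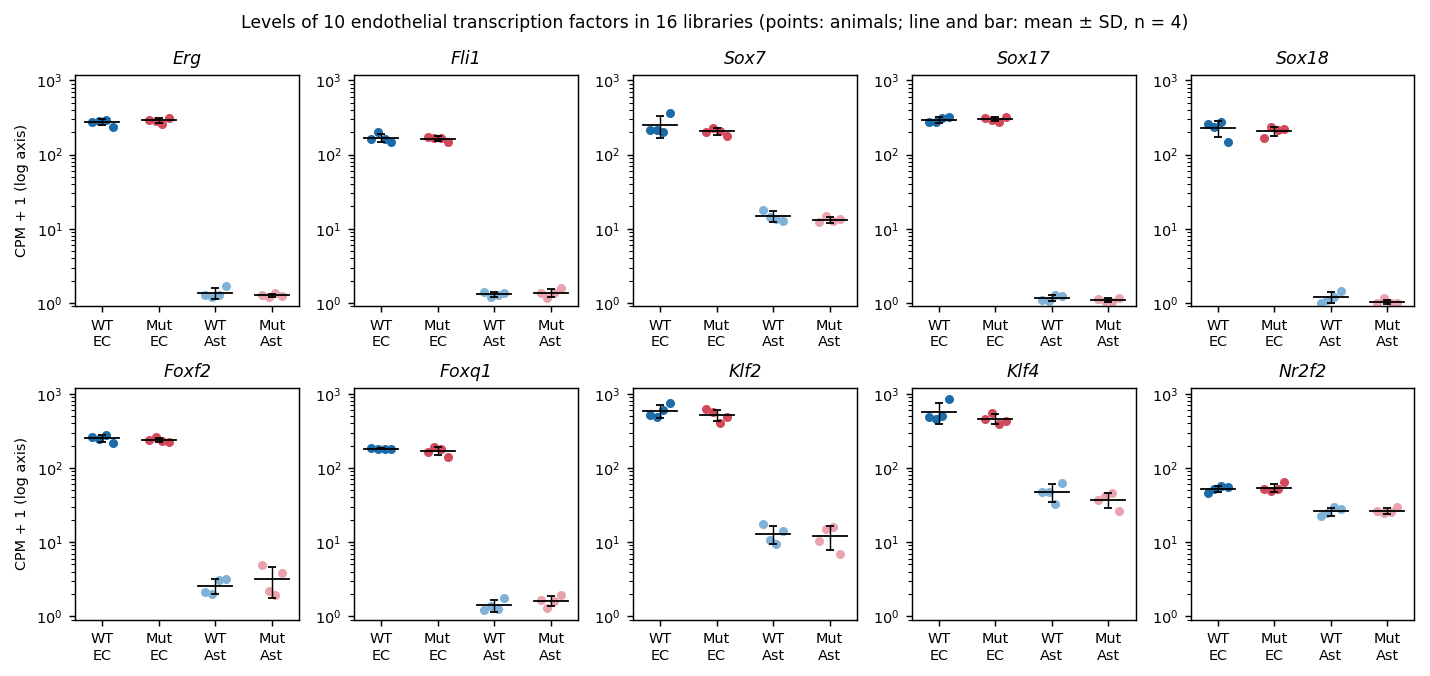
Level of each factor, as CPM plus 1 on a log axis, in wild-type (WT) and mutant (Mut) ECs and astrocytes (Ast). Points are animals, and lines and bars are means ± SD with n = 4. EC points lie above astrocyte points in each panel, with the smallest gap for *Nr2f2*.

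The ETS factors came first in the order of roles. *Erg* (ENSMUSG00000040732.21; GRCm39 chromosome 16, 95160028 to 95387452, minus strand) stood at 294.5, 235.3, 274.5 and 284.7 CPM in ECs of wild-type animals 5, 9, 19 and 22. In ECs of mutant animals 2, 13, 18 and 21 it stood at 309.0, 294.5, 285.6 and 260.6 CPM. The ranges overlapped, and the lowest of the 8 values was that of wild-type animal 9. Astrocyte libraries held 0.20 to 0.70 CPM of *Erg*, from 26 reads in the 4 wild types and 23 in the 4 mutants, so the gene was near the limit of detection there. The EC level was 766 times that of astrocytes in wild types (95% interval on counts, 523 to 1173; counting error only), and the fitted log2 difference was 9.49 (SE 0.23).

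*Fli1* (ENSMUSG00000016087.14; chromosome 9, 32333500 to 32454157, minus strand), its closest relative in the family, held 159.1, 148.1, 163.4 and 201.7 CPM in ECs of wild-type animals 5, 9, 19 and 22. The mutant EC libraries, in the order of animals 2, 13, 18 and 21, held 144.9, 171.2, 168.4 and 169.0 CPM. The lowest and the highest animal of the 8 were a mutant (animal 2) and a wild type (animal 22). In astrocytes *Fli1* ran from 0.15 to 0.57 CPM, from 22 reads in wild types and 30 in mutants, and the log2 difference between wild-type ECs and astrocytes was 9.04 (SE 0.18).

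The stretches upstream of *Erg* and *Fli1* are shown because both genes were nearly silent in astrocytes and because the same pair of motifs lies at nearly the same place in each. They are 60 bases of GRCm39 on the strand of the gene, positions -130 to -71 from the start of the canonical transcript of GENCODE. Capitals mark the SOX letters ACAATG and the GATA letters AGATAA, both read here on the opposite strand as CATTGT and TTATCT.
Erg: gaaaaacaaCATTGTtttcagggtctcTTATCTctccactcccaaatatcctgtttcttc
Fli1: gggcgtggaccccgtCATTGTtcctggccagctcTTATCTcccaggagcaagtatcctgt
The first lies at chr16:95260278-95260337 and the second at chr9:32452962-32453021, both on the minus strand. The SOX letters begin at position -121 in *Erg* and -115 in *Fli1*, and the GATA letters at -103 and -96. Searched on both strands in the 300 bases from 250 before to 50 after the start, the SOX letters occurred in 2 of the 10 promoters and in 10.8% of 21631 promoters of protein-coding genes, and the GATA letters in 2 of 10 and in 10.6%. Both occurred together in 353 promoters (1.63%). The letters were chosen after these sequences had been seen, and a match is a description of the sequence, not of binding.

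Genes that ETS factors are known to control in endothelium were high in the same libraries. Of 20 listed targets, 20 were called higher in wild-type ECs than in astrocytes, with a median log2 difference of 9.10 against 0.02 over all genes tested. *Mmrn2* (8.66, SE 0.13), an endothelial matrix protein, *Rasip1* (7.96, SE 0.16), needed for vessel lumens, and *Icam2* (9.81, SE 0.20), a junctional adhesion molecule, were among those with the smallest p. Of 17 other ETS-family genes tested, 12 were called higher in ECs and 5 in astrocytes, *Ets2* (3.54, SE 0.11) and *Elk3* (4.07, SE 0.14) among the first and *Etv5* (-3.65, SE 0.14) among the second.

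The SOXF genes were not alike. *Sox17* (ENSMUSG00000025902.14; chromosome 1, 4561151 to 4567784, minus strand), known for its place in arterial endothelium, stood at 307.0, 321.0, 272.2 and 271.6 CPM in ECs of wild-type animals 5, 9, 19 and 22. Mutant ECs of animals 2, 13, 18 and 21 held 316.5, 305.8, 292.4 and 273.7 CPM. It was among the steadiest of the 10, with SDs of 8.53% and 6.21% of the mean in wild-type and mutant ECs. Astrocyte libraries held 1 to 5 reads each of *Sox17*, 12 in all wild types and 8 in all mutants, and the EC level was 1799 times higher in wild types (95% interval on counts, 1030 to 3482).

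*Sox18* (ENSMUSG00000046470.6; chromosome 2, 181311629 to 181313438, minus strand), mutated in the ragged mouse and known from lymphatic specification, ranged more widely. Its level was 275.4, 145.5, 255.4 and 237.7 CPM in ECs of wild-type animals 5, 9, 19 and 22. In mutant animals 2, 13, 18 and 21 it was 217.0, 164.4, 235.8 and 212.7 CPM. The lowest library was again wild-type animal 9, and mutant animal 13 was next. Wild-type astrocytes held 14 reads of *Sox18* in all, and mutant astrocytes 3, all in animal 18. The ratio of mutant ECs to mutant astrocytes was 5743, with a 95% interval on counts from 1965 to 27850, so its size is poorly fixed. Its fitted log2 difference in wild types was 10.11 (SE 0.42), and 11.06 (SE 0.29) without animal 9. Astrocytes of wild-type animals 5, 19 and 22 held 4, 0 and 2 reads. The second SE is therefore smaller than counting error alone and does not measure the precision.

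*Sox7* (ENSMUSG00000063060.7; chromosome 14, 64181006 to 64188352, plus strand) was the SOXF gene with reads in astrocytes. Its EC level was 198.1, 367.4, 212.4 and 214.2 CPM in wild-type animals 5, 9, 19 and 22, and 175.1, 201.3, 230.1 and 210.1 CPM in mutant animals 2, 13, 18 and 21. A single library, that of wild-type animal 9, was far above the other 7. Astrocytes held 12.7, 11.6, 17.2 and 13.6 CPM in the same wild-type animals and 12.6, 11.2, 13.7 and 11.6 CPM in the same mutants, which is 1010 and 1022 reads. These astrocyte values are 5.56% and 6.01% of the EC means in wild types and mutants, while 12 endothelial markers ran from 0.0445% to 0.528% in wild types. The level of *Sox7* in the astrocyte fraction was therefore above that of every listed endothelial marker relative to ECs, and whether astrocytes or other cells of that fraction carried it was not tested.

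Other SOX genes lay mostly on the astrocyte side. Of 13 tested in wild types, 10 were called higher in astrocytes and 2 in ECs, where 6233 of 16336 genes were called higher in astrocytes. *Sox2* (-5.06, SE 0.17), *Sox1* (-5.39, SE 0.11) and *Sox21* (-4.92, SE 0.10), factors of neural progenitors and glia, and *Sox6* (-4.35, SE 0.17) had the smallest p. Of 21 listed SOXF targets and arterial genes, 17 were called higher in ECs and 1 in astrocytes, with *Notch4* (5.26, SE 0.12), *Dll4* (6.61, SE 0.18), *Acvrl1* (8.64, SE 0.23) and *Sema3g* (9.80, SE 0.29) leading by p.

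The forkhead genes are neighbours. *Foxq1* (ENSMUSG00000038415.11; chromosome 13, 31740117 to 31744959) and *Foxf2* (ENSMUSG00000038402.3; chromosome 13, 31809663 to 31816393) lie on the plus strand, 64703 bases apart. *Foxf2* stood at 276.5, 212.9, 256.5 and 246.4 CPM in ECs of wild-type animals 5, 9, 19 and 22, and at 223.0, 235.7, 260.6 and 229.2 CPM in mutant animals 2, 13, 18 and 21. *Foxq1* held 181.6, 181.0, 183.1 and 178.6 CPM in the same wild-type ECs, and 140.7, 162.6, 192.4 and 180.3 CPM in the same mutant ECs. The wild-type libraries of *Foxq1* lay between 178.6 and 183.1 CPM, while the mutant ones spread to both sides of them.

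In astrocytes *Foxf2* held 2.08, 2.14, 1.13 and 0.97 CPM in wild-type animals 5, 9, 19 and 22, and 2.80, 3.86, 1.16 and 0.91 CPM in mutant animals 2, 13, 18 and 21. The higher values were those of animals 2, 5, 9 and 13, which are the animals with Y-linked transcripts, in both genotypes. *Foxq1* ran from 0.23 to 0.93 CPM in astrocytes, from 29 reads in wild types and 52 in mutants. The log2 differences between wild-type ECs and astrocytes were 7.23 (SE 0.23) for *Foxf2* and 8.75 (SE 0.22) for *Foxq1*. Of 19 other forkhead genes tested, 9 were called higher in ECs and 7 in astrocytes, and *Foxf1* (8.16, SE 0.34), the paralogue of *Foxf2*, *Foxc1* (4.55, SE 0.15), *Foxp1* (3.81, SE 0.10) and *Foxl2* (10.60, SE 0.26) led those of ECs.

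*Klf2* and *Klf4* had the highest EC levels of the 10 per length, and in wild-type ECs the SDs of these 2 genes, *Sox7* and *Sox18* were the widest relative to the mean when animal 9 was included. Without that animal, wild-type ECs held 208.2 ± 8.82 CPM of *Sox7*, 483.2 ± 25.2 of *Klf4*, 256.2 ± 18.9 of *Sox18* and 531.4 ± 66.5 of *Klf2* (SD, n = 3). *Klf2* (ENSMUSG00000055148.8; chromosome 8, 73072726 to 73075502, plus strand) stood at 605.5, 747.7, 511.8 and 477.0 CPM in ECs of wild-type animals 5, 9, 19 and 22. In mutant animals 2, 13, 18 and 21 it stood at 478.5, 616.5, 560.9 and 406.0 CPM. The highest library was that of wild-type animal 9, and the ranges overlapped. In astrocytes *Klf2* ran from 8.46 to 16.3 CPM in wild types and from 5.97 to 15.2 CPM in mutants, 2.03% and 2.17% of the EC means.

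*Klf4* (ENSMUSG00000003032.9; chromosome 4, 55527139 to 55532528, minus strand) stood at 503.1, 845.7, 491.6 and 454.9 CPM in ECs of wild-type animals 5, 9, 19 and 22. In mutant animals 2, 13, 18 and 21 the level was 433.6, 460.2, 550.8 and 384.0 CPM. Animal 9 was again far above the rest. Astrocytes held 31.9, 62.4, 46.0 and 45.8 CPM in wild types and 25.1, 35.5, 40.7 and 44.3 CPM in mutants, so *Klf4* was the most abundant of the 10 in that fraction, also per length, at 8.11% and 7.96% of its EC means. The log2 differences between wild-type ECs and astrocytes were 5.57 (SE 0.26) for *Klf2* and 3.57 (SE 0.28) for *Klf4*.

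The 250 bases before the starts of *Sox7*, *Klf2* and *Klf4* are shown because these are the genes that stood highest in the library of animal 9 relative to the other EC libraries. Sequences are GRCm39, on the strand of the gene, up to the base before the canonical start. Capitals mark the GC box GGGCGGG, bound by SP and KLF proteins, and TGACG, the core of the cAMP response element, on either strand (as CCCGCCC and CGTCA).
Sox7: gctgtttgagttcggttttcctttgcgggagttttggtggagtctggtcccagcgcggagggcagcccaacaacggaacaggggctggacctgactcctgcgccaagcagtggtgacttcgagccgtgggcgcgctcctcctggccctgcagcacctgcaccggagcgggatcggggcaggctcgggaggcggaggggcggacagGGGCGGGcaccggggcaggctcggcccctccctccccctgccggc
Klf2: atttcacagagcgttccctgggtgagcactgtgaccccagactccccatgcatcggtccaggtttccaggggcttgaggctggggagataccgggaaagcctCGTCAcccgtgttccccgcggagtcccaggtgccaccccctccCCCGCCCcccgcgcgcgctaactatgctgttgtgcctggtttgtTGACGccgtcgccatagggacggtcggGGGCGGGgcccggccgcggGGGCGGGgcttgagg
Klf4: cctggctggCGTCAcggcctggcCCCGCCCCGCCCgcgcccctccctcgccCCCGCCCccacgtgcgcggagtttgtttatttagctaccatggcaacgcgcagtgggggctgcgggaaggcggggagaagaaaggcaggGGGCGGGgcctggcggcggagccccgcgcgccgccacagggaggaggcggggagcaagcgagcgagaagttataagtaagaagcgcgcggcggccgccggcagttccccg
The stretches lie at chr14:64180756-64181005 (plus strand), chr8:73072476-73072725 (plus strand) and chr4:55532467-55532716 (minus strand). They hold 1, 3 and 4 GC boxes, the first pair of *Klf4* overlapping, and 0, 2 and 1 matches to TGACG. *Klf2* and *Klf4* share the run gggggcggggcc of 12 bases around a GC box. Other pairs of the 10 promoters share runs at least as long, 12 bases in *Sox17* and *Foxq1* and 14 in *Erg* and *Nr2f2*. In the 300 bases around the start, the GC box occurred in 5 of the 10 promoters and in 30.9% of all 21631. TGACG occurred in 4 of 10 and in 22.6%, so both are common letters.

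Of 12 other KLF genes tested, 8 were called higher in wild-type ECs and 2 in astrocytes. *Klf13* (2.45, SE 0.17), *Klf3* (1.15, SE 0.09) and *Klf11* (3.22, SE 0.27) were on the EC side and *Klf15* (-5.12, SE 0.23), a glucocorticoid-responsive gene, on that of astrocytes. Of 12 listed endothelial targets of KLF2 and KLF4, 10 were called higher in ECs and 2 in astrocytes. *Nos3* (8.82, SE 0.27), the endothelial nitric oxide synthase, and *Tek* (9.73, SE 0.23), the angiopoietin receptor, were among the 10.

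*Nr2f2* (ENSMUSG00000030551.15; chromosome 7, 70001692 to 70016519, minus strand) was the least endothelial of the 10. Its EC level was 55.9, 53.5, 44.5 and 51.3 CPM in wild-type animals 5, 9, 19 and 22, and 63.3, 51.0, 48.3 and 50.9 CPM in mutant animals 2, 13, 18 and 21. In astrocytes the same wild types held 28.3, 27.0, 21.4 and 23.3 CPM and the same mutants 28.9, 25.6, 23.6 and 24.3 CPM. EC and astrocyte libraries differed without overlap, by a log2 difference of 0.98 (SE 0.12) in wild types and 0.98 (SE 0.12) in mutants. Its paralogue *Nr2f1*, a factor of cortical patterning, was called higher in astrocytes (-4.01, SE 0.16) and the more distant *Nr2f6* in ECs (1.15, SE 0.14). Of 12 listed venous genes, 11 were called higher in ECs and 1 in astrocytes, *Slc38a5* (10.90, SE 0.30) and *Aplnr* (10.90, SE 0.31) among the 11.

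Reads of some of these genes may include those of an overlapping gene on the opposite strand, since the strand setting of the counting is not stated. The non-coding gene 1700018A04Rik overlaps *Foxq1* by 118 and *Foxf2* by 113 exonic bases and had 1307 reads in wild-type ECs, against 13978 and 19120 for the pair. In astrocytes it had 8 reads in wild types and 16 in mutants, against 29 and 52 for *Foxq1*. Gm37587 shares 1011 exonic bases with *Sox17* and had 61 reads, against 22755. B130024G19Rik shares 1225 exonic bases with *Nr2f2* and had 201 reads in wild-type ECs and 154 in wild-type astrocytes, against 3995 and 1831 for *Nr2f2*. *Sox18* shares 420 exonic bases with Gm74574, *Fli1* 123 with Gm69055 and *Nr2f2* 492 with Gm72772, all on the opposite strand, and reads of these 3 genes were not analysed here. How reads in the shared bases were assigned was not tested.

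To compare levels between genes, CPM was divided by exonic length in kilobases. In wild-type ECs the order was *Klf2* (274.1 ± 56.6 CPM per kb), *Klf4* (182.2 ± 57.9), *Sox18* (140.6 ± 35.3), *Erg* (78.3 ± 7.47), *Foxf2* (70.8 ± 7.58), *Sox7* (66.7 ± 21.5), *Sox17* (55.0 ± 4.69), *Fli1* (38.4 ± 5.33), *Foxq1* (37.4 ± 0.39) and *Nr2f2* (5.46 ± 0.52), as means ± SD with n = 4. Neighbours in this order overlapped except at the steps below *Sox18*, below *Sox17* and below *Foxq1*. In wild-type astrocytes *Klf4* led with 14.8 ± 3.96 CPM per kb, followed by *Klf2* (5.57 ± 1.68), *Sox7* (3.71 ± 0.65), *Nr2f2* (2.66 ± 0.34) and *Foxf2* (0.45 ± 0.18), and the other 5 genes had means of at most 0.12 CPM per kb. Of these 5, *Klf2* and *Sox7* overlapped, and the other neighbours did not.

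The astrocyte level as a percent of the EC level set the 10 genes in 3 ranges. In wild types *Sox17* (0.0565%), *Sox18* (0.0852%), *Erg* (0.133%), *Fli1* (0.181%) and *Foxq1* (0.221%) lay within the range of the 12 endothelial markers (0.0445% to 0.528%, median 0.126%). *Foxf2* (0.637%) was just above that range, and *Klf2*, *Sox7*, *Klf4* and *Nr2f2* ran from 2.03% to 48.7%. The 12 markers of pericytes and smooth muscle, which ran from 10% to 190.9% with a median of 40.2%, were present in both fractions, with summed levels of 593 to 1722 CPM in astrocyte libraries and 2642 to 5088 CPM in EC libraries. The part of these cells in the astrocyte levels of *Klf4*, *Sox7* and *Nr2f2* was not tested. Of 31 other endothelial transcription factors tested, 25 were called higher in wild-type ECs and 3 in astrocytes, with a median log2 difference of 4.07. *Lyl1* (8.36, SE 0.14), *Tal1* (7.74, SE 0.15), *Mecom* (6.78, SE 0.12) and *Meox1* (9.15, SE 0.18) had the smallest p.

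**Figure D2:**
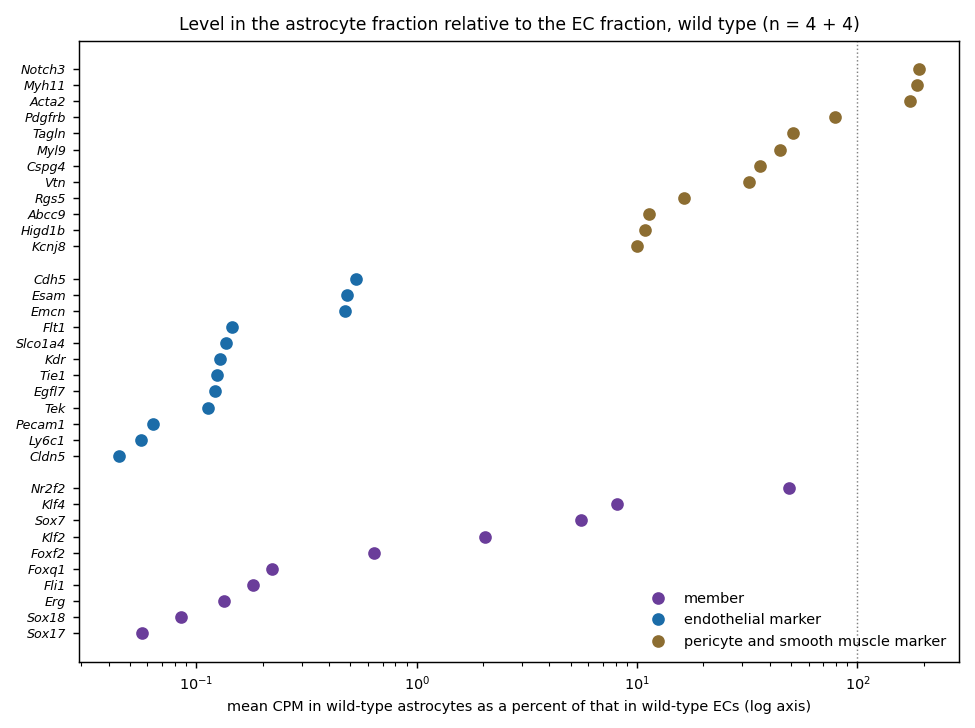
Mean CPM in wild-type astrocytes as a percent of mean CPM in wild-type ECs, on a log axis, for the 10 factors, 12 endothelial markers and 12 pericyte and smooth muscle markers. The dotted line marks equal levels. *Sox17* to *Foxq1* lie among the endothelial markers, and *Klf4* and *Nr2f2* lie at 8.11% and 48.7%.

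The comparison of mutant with wild-type ECs asks whether the endothelial programme changed when astrocytes lost *Hmgb1*. None of the 10 factors was called by edgeR, and none had an unadjusted p under 0.05. Over all genes, 0 of 15750 were called (0%), while 826 had an unadjusted p under 0.05 and DESeq2 called 12, with none of the 10 among them. The mutants' and wild types' CPM overlapped for all 10 factors, where 543 of 15750 genes (3.45%) did not overlap. The log2 difference, mutant minus wild type, was above 0 for 3 factors and below 0 for 7, with a median of -0.09 against -0.00080 over all genes tested. Exact two-sided permutation p ran from 0.286 (*Klf4*) to 0.857 (*Fli1*).

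The precision of these values differed between the factors. *Sox17* was at 0.01 (SE 0.09, 95% interval -0.19 to 0.21), *Erg* at 0.07 (SE 0.08, -0.12 to 0.26), *Fli1* at -0.05 (SE 0.09, -0.26 to 0.17) and *Nr2f2* at 0.05 (SE 0.11, -0.20 to 0.30). For these 4 and for *Foxf2* (-0.07, SE 0.08, -0.26 to 0.11) and *Foxq1* (-0.11, SE 0.08, -0.30 to 0.08) the intervals lay between -0.30 and 0.30 on the log2 scale. They were wider for *Sox18* (-0.14, SE 0.18, -0.56 to 0.27), *Klf2* (-0.19, SE 0.18, -0.60 to 0.21), *Sox7* (-0.30, SE 0.20, -0.75 to 0.16) and *Klf4* (-0.34, SE 0.21, -0.83 to 0.14).

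These 4 were also the factors with the largest log2 differences, in either direction, between wild-type animal 9 and the mean of the other EC libraries. Without its library *Sox7* was at -0.02 (SE 0.08), *Klf4* at -0.07 (SE 0.12), *Klf2* at -0.04 (SE 0.16) and *Sox18* at -0.30 (SE 0.11), so that the first 3 moved close to 0 and *Sox18* away from it, while the SE of *Klf2* changed little. No factor was called in that fit, where *Sox18* had an edgeR adjusted p of 0.884 (0.733 to 1.0 over its alternatives). Within the 4 animals with Y-linked transcripts, which include animal 9, *Sox7* was at -0.60 (SE 0.30) and *Klf4* at -0.60 (SE 0.27). Within the 4 with *Xist* they were at 0.03 (SE 0.07) and -0.03 (SE 0.18). *Klf2* was at -0.31 and -0.04 within the sets and *Sox18* at -0.13 and -0.15, and none was called in either.

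**Figure D3:**
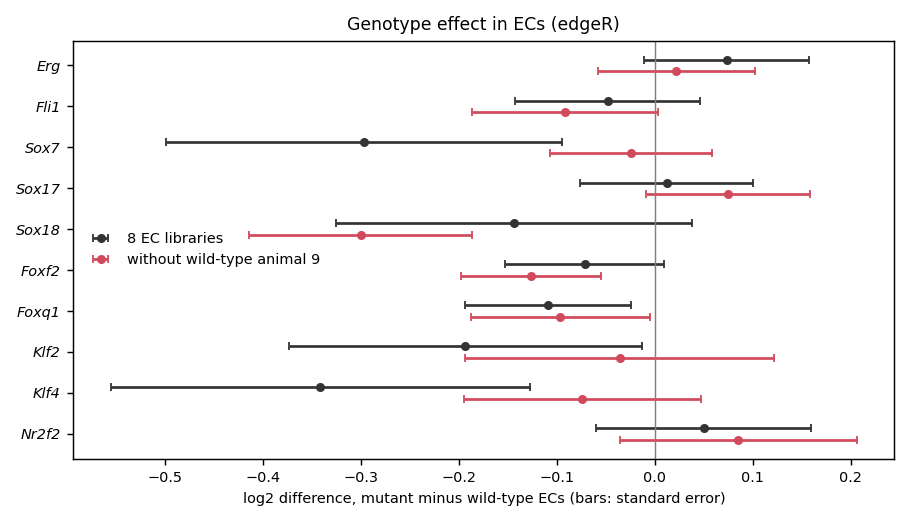
Log2 difference between mutant and wild-type ECs for each factor by edgeR, with standard errors, over all 8 EC libraries (dark) and without wild-type animal 9 (red). Without that animal *Sox7* moved from -0.30 to -0.02 and *Klf4* from -0.34 to -0.07, and *Sox18* from -0.14 to -0.30.

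No listed group of genes held a called gene in this comparison either. Of 31 other endothelial transcription factors 10 were above 0 and 21 below (median -0.03), and of 20 ETS targets 7 and 13 (median -0.03). Of 21 SOXF and arterial genes 7 were above and 14 below (median -0.03), but 14 above and 7 below (median 0.086) without animal 9 and 15 and 6 (median 0.030) without mutant animal 21. Of 13 venous genes 2 were above and 11 below (median -0.22), and of 12 other KLF genes 2 and 10 (median -0.15). Summed venous levels were 3030 to 5312 CPM in wild-type and 3041 to 4099 CPM in mutant ECs, and the upper wild-type end was animal 22. Those of the KLF list were 1087 to 1638 CPM and 1071 to 1210 CPM, and the upper wild-type end was animal 9. Of 18 other forkhead genes 4 were above and 14 below (median -0.08), and 5 had an unadjusted p under 0.05, where 826 of 15750 genes did. These 5, all below 0, were *Foxj1* (-1.16, SE 0.37), *Foxm1* (-0.43, SE 0.17), *Foxl2* (-0.19, SE 0.079), *Foxk1* (-0.20, SE 0.087) and *Foxp1* (-0.17, SE 0.073), each with an edgeR adjusted p of 0.943. The summed level of that list did not overlap, at 909.6 to 965.5 CPM in mutant and 971.6 to 1039 CPM in wild-type ECs. The gap, from 965.5 to 971.6 CPM, is narrow. Many lists were summed, and the sums were not tested. *Foxj1* is also on the list of ependyma and choroid plexus markers, of which 8 of 9 were below 0 (median -1.16). Summed levels of these markers were 21.6 to 5171 CPM in wild-type and 24.1 to 1140 CPM in mutant ECs, the upper ends being animals 5 and 21. The part of such cells in the forkhead values was not tested. The immediate early and stress list, which holds no gene of the 10, had 24 of 24 genes below 0 with a median of -0.36, and 14 of 24 with a median of -0.028 without animal 9. Its summed level was 7763 to 16559 CPM in wild-type ECs and 7113 to 9393 CPM in mutant ECs, and the upper end of the wild types is animal 9. The pericyte and smooth muscle markers had 10 of 11 genes above 0 (median 0.39) and 5 with an unadjusted p under 0.05, with a summed level of 2839 to 5088 CPM in mutant and 2642 to 3796 CPM in wild-type ECs. The part of either in the values of the 10 factors was not tested.

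In astrocytes, where Cre is active, 6 of the 10 factors passed the filter on low counts and 0 of these were called. Over all genes 1 of 15850 was called (0.00631%), *Esr1* (named here after its values were seen), while 1180 had an unadjusted p under 0.05 and DESeq2 called 123, with none of the 10 among them. *Hmgb1* itself, although its genotypes did not overlap, was at -1.36 (SE 0.15, edgeR adjusted p = 0.0605) and missed the threshold. The log2 differences were -0.35 (SE 0.21) for *Klf4*, 0.65 (SE 0.47) for *Foxq1*, 0.49 (SE 0.49) for *Foxf2*, -0.16 (SE 0.14) for *Sox7*, -0.09 (SE 0.29) for *Klf2* and 0.05 (SE 0.12) for *Nr2f2*. CPM of the genotypes overlapped for all 10, against 788 of 15850 genes (4.97%) that did not overlap, and exact p ran from 0.229 to 0.743. *Klf4* was at -0.62 (SE 0.31) within the animals with Y-linked transcripts and at -0.13 (SE 0.08) within those with *Xist*, and *Foxf2* at 0.68 (SE 0.28) and -0.05 (SE 0.36). The difference between the genotype effects in ECs and astrocytes was called for 2 of 17493 genes (0.0114%), *Esr1* and *Hmgb1*, and for none of the 10. It was 0.02 (SE 0.32) for *Klf4*, -0.13 (SE 0.26) for *Sox7*, -0.10 (SE 0.36) for *Klf2*, 0.01 (SE 0.18) for *Nr2f2*, -0.54 (SE 0.46) for *Foxf2* and -0.75 (SE 0.39) for *Foxq1*. For the 4 factors that rest on 3 to 30 astrocyte reads per genotype it was 2.09 (SE 1.14) for *Sox18*, 0.76 (SE 0.53) for *Sox17*, 0.45 (SE 0.37) for *Erg* and -0.30 (SE 0.36) for *Fli1*.

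The EC library of wild-type animal 9 shows how far these factors differ from each other within 1 genotype. *Klf4* was at 845.7 CPM there against 384.0 to 550.8 CPM in the other 7 EC libraries, *Sox7* at 367.4 against 175.1 to 230.1 CPM, and *Klf2* at 747.7 against 406.0 to 616.5 CPM. *Sox17* was at 321.0 against 271.6 to 316.5 CPM. *Sox18* (145.5 against 164.4 to 275.4 CPM), *Erg* (235.3 against 260.6 to 309.0 CPM) and *Foxf2* (212.9 against 223.0 to 276.5 CPM) were below all others, while *Fli1*, *Foxq1* and *Nr2f2* lay within the range. Thus 4 of the 10 were above and 3 below every other EC library, where of 10954 genes with at least 5 CPM in ECs 13.4% were above and 29.5% below. Against the mean of the other 7 libraries, taken on log2 of CPM plus 1, the differences were 0.86 for *Klf4*, 0.84 for *Sox7*, 0.53 for *Klf2*, -0.63 for *Sox18* and -0.28 for *Erg*. Since this library was singled out for its values, these are descriptions without a test.

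In the same library 21 of 23 immediate early and stress genes were above all other EC libraries, with a median log2 difference of 0.96. *Atf3* (877.5 against 124.9 to 280.1 CPM), *Fosb* (1029 against 225.7 to 358.3 CPM) and *Egr1* (671.1 against 175.5 to 376.4 CPM) are examples. Of 9 other KLF genes 5 were above and 0 below, and of 21 SOXF and arterial genes 9 were above and 4 below. Of 11 pericyte and smooth muscle markers 6 were below all others, and 4 of 9 oligodendrocyte markers were above, with a median of 1.43. In astrocytes of the same animal *Klf4* was also the highest of the 8 libraries (62.4 against 25.1 to 46.0 CPM), while *Sox7* was not (11.6 against 11.2 to 17.2 CPM). The part of dissociation, of other cells or of the animal itself in these levels was not tested.

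**Figure D4:**
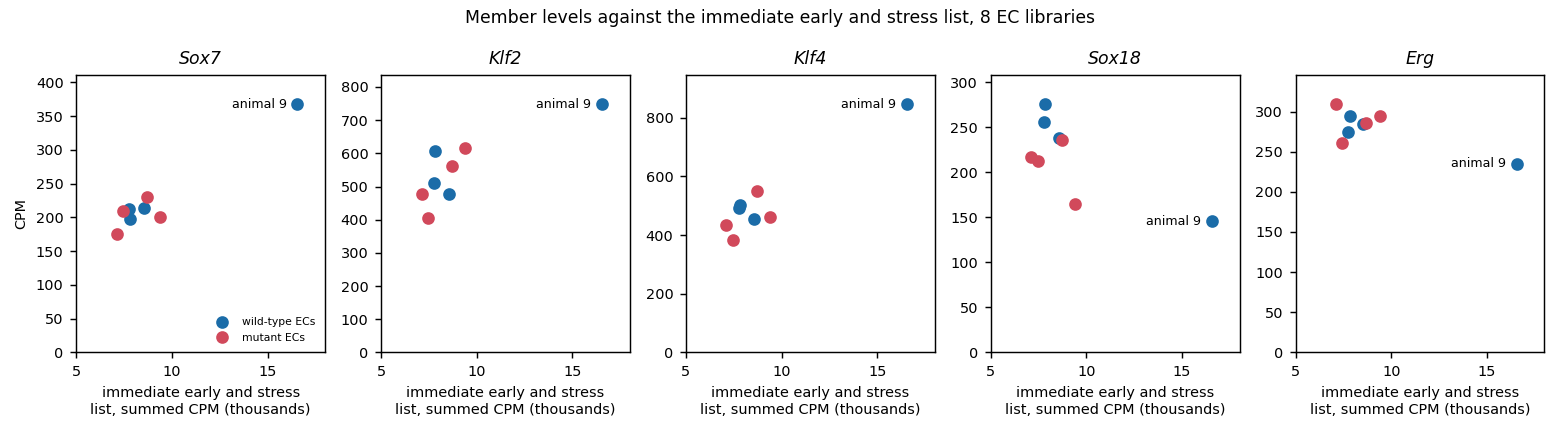
CPM of 5 factors against the summed CPM of 24 immediate early and stress genes, in the 8 EC libraries, by genotype. Animal 9 lies far to the right at 16559 CPM, with the highest *Sox7*, *Klf2* and *Klf4* and the lowest *Sox18* and *Erg*, and the other 7 libraries lie between 7113 and 9393 CPM.

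Animals with Y-linked transcripts and animals with *Xist* were compared with genotype as a term. The sets differ in animal number as well as in sex, and the 2 cannot be told apart. In ECs none of the 10 factors was called by edgeR, while 626 of 16157 genes (3.87%) were. An unadjusted p under 0.05 was found for 3 of the 10 and for 2905 of the 16157 genes. *Sox17* came nearest, at 305.8 to 321.0 CPM in the 4 animals with Y-linked transcripts and 271.6 to 292.4 CPM in the 4 with *Xist*, without overlap. How many of all genes did not overlap between the sets was not counted. The log2 difference of *Sox17* was 0.21 (SE 0.06, edgeR adjusted p = 0.0916), which missed the threshold, and over its alternatives the adjusted p ran from 0.0111 (DESeq2) to 0.259. *Nr2f2* was at 0.23 (SE 0.08, edgeR adjusted p = 0.169) and *Klf2* at 0.35 (SE 0.14, edgeR adjusted p = 0.229). Genes of arterial endothelium moved with this split. Of 21 listed SOXF targets and arterial genes 7 were called higher in the animals with Y-linked transcripts and 0 lower (median 0.39 against 0.0033 over all genes), among them *Gja5* (1.13, SE 0.17), an arterial gap junction protein, *Bmx* (0.89, SE 0.15), *Fbln5* (1.63, SE 0.24) and *Sema3g* (0.48, SE 0.10). Of 13 venous genes 3 were called lower and 1 higher (median -0.44), with *Ackr1* (-2.47, SE 0.49), *Lrg1* (-2.79, SE 0.56) and *Slc38a5* (-0.44, SE 0.10) lower and *Tmem252* (0.50, SE 0.11) higher. These counts rest on all 8 animals. Leaving out wild-type animal 9, 4 arterial genes were called higher (median 0.34) and 0 venous genes in either direction (median -0.43), and leaving out each of the 8 animals in turn 2 (without mutant animal 21) to 5 arterial genes were called higher and 0 to 2 venous genes lower. *Nr2f2*, the venous factor, was not among the genes called. The split also took in markers of other cells. Of 7 erythroid markers 4 were called lower (median -0.94), with a summed level of 825.5 to 1166 CPM with Y-linked transcripts and 1354 to 2199 CPM with *Xist*, and of 12 astrocyte markers 4 were called lower and 1 higher (median -0.41). With 1 animal left out, 1 (without mutant animal 13) to 5 erythroid and 2 to 7 (without wild-type animal 5) astrocyte markers were called lower. Of 12 microglial markers 1 was called lower, but 9 without animal 9 and 3 without wild-type animal 19, and their summed levels, 99.9 to 280.3 CPM and 256.7 to 436.6 CPM, overlapped. The part of these cells in the levels of the factors was not tested.

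In astrocytes the same comparison called 2 of the 6 factors tested, *Foxf2* and *Nr2f2*, against 5264 of 16214 genes (32.5%), so that a share of 2 in 6 is close to the background. *Foxf2* was 2.08 to 3.86 CPM with Y-linked transcripts and 0.91 to 1.16 CPM with *Xist*, without overlap, a log2 difference of 1.39 (SE 0.22, edgeR adjusted p = 0.00161). *Nr2f2* was 25.6 to 28.9 CPM and 21.4 to 24.3 CPM, also without overlap, with 0.27 (SE 0.07, edgeR adjusted p = 0.0198). How many of all genes did not overlap between the sets in astrocytes was not counted either. Without mutant animal 2 *Nr2f2* was at 0.23 (edgeR adjusted p = 0.0516) and only *Foxf2* was called, and over its alternatives the adjusted p of *Nr2f2* ran from 0.00919 to 0.0516. Without wild-type animal 9, *Klf2* (-0.74, SE 0.20, edgeR adjusted p = 0.0203) and *Klf4* (-0.45, SE 0.10, edgeR adjusted p = 0.00941) were called lower in the animals with Y-linked transcripts, which makes 4 called, and with all animals *Klf2* was at -0.57 (SE 0.22) and *Klf4* at -0.20 (SE 0.19). Over all alternatives the adjusted p ran from 1.31e-04 to 0.22 for *Klf2* and from 0.00941 to 0.855 for *Klf4*. Of 24 immediate early and stress genes 11 were called lower with Y-linked transcripts and 1 higher (median -0.39), against 14 lower without animal 9 and 7 without any 1 of animals 2, 5, 19 and 21, with a summed level of 1984 to 3421 CPM against 3111 to 3656 CPM in the animals with *Xist*. Their part in the levels of *Klf2* and *Klf4* was not tested.

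Markers of pericytes and smooth muscle moved with the same split of the astrocyte libraries. Of 11 pericyte and smooth muscle markers tested 10 were called higher in the animals with Y-linked transcripts and 0 lower, where 2500 of 16214 genes were called higher, with a summed level of 1081 to 1722 CPM against 593 to 858 CPM. Of 11 endothelial markers 4 were called higher and 0 lower, with a summed level of 31.1 to 37.7 CPM against 17.7 to 22.4 CPM. *Abcc9* (2.52, SE 0.21) and *Rgs5* (2.09, SE 0.28), which mark pericytes, and *Esam* (1.76, SE 0.20), an endothelial junction protein, led. Summed neuronal markers were 50.8 to 84.5 CPM against 143.6 to 251.7 CPM, with 10 of 12 called lower, and 6 of 7 erythroid markers were called lower. Over all genes, 2764 of 16214 were called lower. Of 12 astrocyte markers 7 were called higher and 1 lower, with a summed level of 47375 to 52348 CPM against 39994 to 42445 CPM. The part of these cells in the levels of *Foxf2* and *Nr2f2* was not tested.

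**Figure D5:**
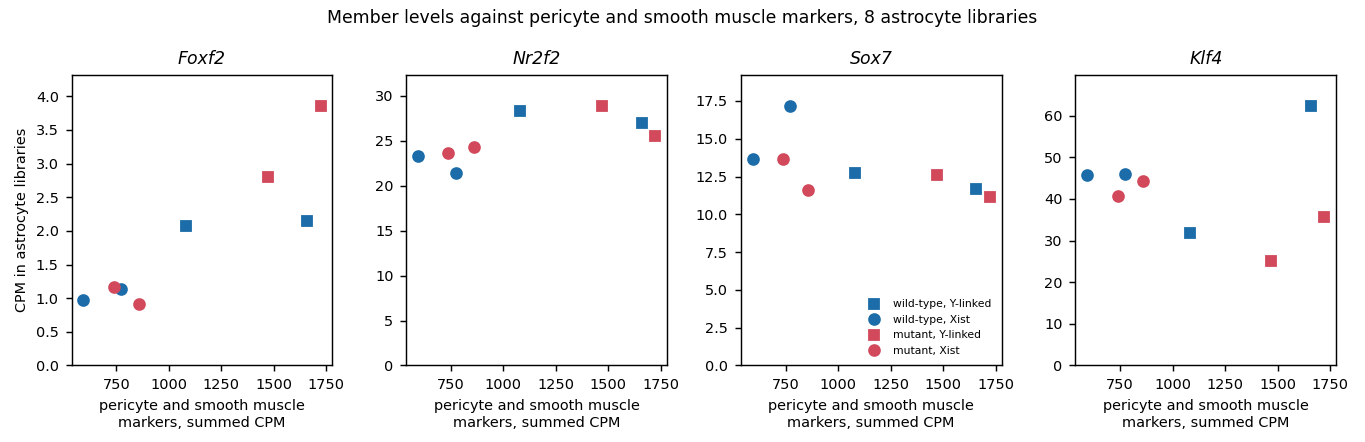
CPM of 4 factors in the 8 astrocyte libraries against the summed CPM of 12 pericyte and smooth muscle markers. Squares are animals with Y-linked transcripts, circles animals with *Xist*, and colours genotypes. The squares lie to the right, at 1081 to 1722 CPM, and are all above the circles for *Foxf2* and *Nr2f2* but not for *Sox7* or *Klf4*.

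The genes whose pattern over the 16 libraries was closest to that of each factor were found by the root mean square difference of log2 of CPM plus 1, after centring each gene on its own mean, among genes of at least 5 CPM. The smallest values were 0.164 for *Erg* with *Fgd5*, 0.167 for *Fli1* with *Foxq1*, 0.108 for *Sox17* with *Ctla2a*, 0.197 for *Sox18* with *Slc40a1*, 0.208 for *Foxf2* with *Pcdh12* and 0.157 for *Foxq1* with *Arhgap27*. The values were 0.203 for *Sox7* with *Lhx6*, 0.231 for *Klf2* with *Gch1* and 0.245 for *Klf4* with *Shb*. Adding 1 to CPM flattens levels near 0, so a small distance does not mean a like ratio of ECs to astrocytes. *Lhx6* held 18.8 CPM in wild-type ECs and 0.068 CPM in wild-type astrocytes, where *Sox7* held 248.0 and 13.8 CPM. *Nr2f2*, whose levels vary little, was closest to *Zbtb38* at 0.0862. Among the 10 themselves the closest pairs were *Fli1* and *Foxq1* (0.167), *Erg* and *Sox17* (0.202) and *Erg* and *Sox18* (0.215), while *Sox7* was closer to *Klf4* (0.348) than to *Sox18* (1.85) or *Sox17* (2.04), its relatives in the SOXF group. These distances are descriptions over libraries that share animals and cell type, and most of each pattern is the gap between ECs and astrocytes.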

How the data were processed

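RNA of sorted ECs and astrocytes was sequenced, 1 library per animal and cell type. The authors trimmed reads with the FASTX-toolkit, aligned and counted them with STAR 2.7.9a on GRCm39, and deposited raw counts per gene without normalization. The annotation release and the strand setting of counting are not given in the sources used here. Of 56980 identifiers, 56236 (98.7%) matched GENCODE, which gave symbols, lengths and promoters, and 744 did not.

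Groups came from the sample labels. Differences were fitted with edgeR 4.0.16 (TMM, filterByExpr, quasi-likelihood F-test, Benjamini-Hochberg over all genes tested, threshold 0.05), and tested on simulated data. Members were also compared by exact permutation of log2(CPM + 1), which took libraries as unpaired also between cell types. Intervals on ratios of counts cover counting error only. SEs of edgeR fits are the size of the log2 difference over the square root of F. For genes with few reads in 1 cell type, *Erg*, *Fli1*, *Foxq1* and *Sox18* among them, they can be smaller than counting error. The lowest depth was 16076010 reads. The number in the labels was taken as that of the animal. The deviations of its EC and astrocyte libraries from group means correlated at 0.173 to 0.46 over 11756 genes in 8 of 8 animals. Libraries of unlike numbers were not compared, so these values do not test the pairing. Of 24 pairs of libraries within groups 0 were identical. An animal was put in the Y-linked set at 1 CPM or more of Y-linked transcripts. Alternatives were DESeq2 1.42.0, limma-voom (limma 3.58.1), RLE factors, other filters, all 16 libraries in 1 fit, *Xist* as a covariate, fits within sets, the animal as a replicate block and leaving out each animal.

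The members and lists were chosen with earlier results of these data known. Named genes are the 10 factors, *Hmgb1*, up to 4 genes of each list by smallest p and the 3 genes nearest each factor; those of the animal 9 library and *Esr1* were chosen after their values were seen.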

Additional observations from a re-analysis of the deposited data

Results flagged for a closer look

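In 40 groups of 4 values (each factor in each group), 5 values stood far from the other 3 of their group, where chance alone flags about 1 group in 20. The factors share libraries, so these flags are not independent of each other. In wild-type ECs animal 9 was high for *Sox7* (367.4 CPM) and *Klf4* (845.7 CPM), both described above with the immediate early genes of that library. In mutant ECs animal 2 was low for *Fli1* (144.9 CPM). Of the astrocyte flags, *Erg* at 0.6952 CPM in wild-type animal 9 and *Sox18* at 0.1513 CPM in mutant animal 18 rest on a few reads each.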

How the results depend on the processing

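The 10 factors were higher in ECs than in astrocytes in each alternative run, and none was called for genotype in any. With the animal as a replicate block, 10 of 10 were called in wild types (12582 genes in all, 12486 without the block) and 10 of 10 in mutants (12796 and 12860), and 0 for the difference of genotype effects (3 genes against 2), so pairing changed no call of a factor.

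Some genotype values in ECs changed sign, those of *Sox7* (-0.30) and *Foxq1* (-0.11) among them. Within the animals with *Xist*, *Erg* was at -0.046, *Sox7* at 0.033 and *Foxq1* at 0.031, and within those with Y-linked transcripts *Fli1* was at 0.042 and *Sox17* at -0.013. With *Xist* as a covariate *Sox17* was at -0.0047. In astrocytes *Foxf2* was at -0.047 and *Klf2* at 0.16 within the animals with *Xist*. For the difference of the genotype effects, *Sox7* was at 0.086 with limma-voom, *Klf4* at -0.014 and *Nr2f2* at -0.018 with no filter, *Sox7* at 0.32 and *Nr2f2* at -0.060 within the animals with *Xist*, and *Klf2* at 0.16 within those with Y-linked transcripts.

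Leaving out 1 animal at a time, the genotype values in ECs ran from -0.092 to 0.046 for *Fli1*, -0.031 to 0.074 for *Sox17* and -0.055 to 0.093 for *Nr2f2*, and in astrocytes from -0.26 to 0.11 for *Klf2* and -0.041 to 0.11 for *Nr2f2*. The difference of effects ran from -0.32 to 0.21 for *Sox7*, -0.35 to 0.185 for *Klf2*, -0.097 to 0.20 for *Klf4* and -0.016 to 0.038 for *Nr2f2*. Between the sets in ECs, *Sox7* ran from -0.15 to 0.24 and *Foxf2* from -0.11 to 0.024. Between the sets in astrocytes, 1 to 4 factors were called.

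Between the sets in ECs, 1 factor (*Sox17*) was called by DESeq2 and with all 16 libraries in 1 fit, and 2 (*Klf2* and *Klf4*) with no filter, against 0. Genes called there numbered 1177, 1168 and 2071 in these fits and 335 to 584 with 1 animal left out, against 626. For genotype in ECs DESeq2 called 12 genes and the fit with *Xist* 1, against 0. In astrocytes the counts were 123 by DESeq2, 192 with *Xist*, 6 with all libraries, 3 with no filter, 2 with limma-voom, and 0 and 7 within the Y-linked and *Xist* sets, against 1. For the difference of effects they were 13 by DESeq2, 0 within the Y-linked set and 1 to 3 with 1 animal left out, against 2. The causes were not tested. Depth limits *Erg*, *Fli1*, *Sox17*, *Sox18* and *Foxq1* in astrocytes, where 3 to 52 reads per genotype limit what a genotype comparison can show.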
